A study of Mus musculus with 12 samples.

Results

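The acute phase genes Saa1, Saa2, Saa3, Lcn2, Hp, Cp, Orm1 and Ptx3 were followed by RNA sequencing in 2 mouse tumour cell lines after ionising radiation. The 8 genes were taken from the deposited count table by gene symbol, out of 57180 gene rows. The selection used no measured value as a threshold, though earlier results of these data were known when the genes were chosen. Both lines, KPC (mouse pancreatic ductal adenocarcinoma cells) and MB49 (mouse bladder cancer cells), are labelled wild type in genotype and were grown in DMEM with fetal bovine serum and penicillin/streptomycin. Each line had 3 libraries labelled 8 Gy radiotherapy, with 48 h of culture after the dose, and 3 labelled control, for which no dose or culture time is given. The study's design text also names senescent cells of both lines, but the library labels do not say which libraries, if any, held them. The libraries of a group are numbered 1 to 3, with no word on whether each was a culture of its own. The p-values therefore speak of the spread between these 12 libraries, part or all of which may be technical.

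Acute phase proteins are plasma and tissue proteins whose production changes in inflammation. Interleukin-6 acting through STAT3, and interleukin-1 and tumour necrosis factor acting through NF-kB and the C/EBP factors, are the classical inducers, and the liver is the main source of the plasma proteins. Several of the genes are also induced outside the liver: Saa3 in macrophages, fat and epithelium, Lcn2 in epithelium and neutrophils, and Ptx3 in macrophages, dendritic cells, fibroblasts and endothelium.

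The rule set for showing promoters, a call in the same direction in both lines, takes in Saa3, Lcn2 and Cp. Cp is left out here because its MB49 groups overlapped. The promoters of Saa3 and Lcn2 are shown, whose irradiated and control libraries did not overlap in either line. The sequences are RefSeq promoters on the build GRCm38.p6, ended upstream of the first annotated coding transcript start. Capitals mark matches to the motifs searched on both strands: GGG, any 5 bases and CC for NF-kB, TTGCNNAA for C/EBP, TTCNNNGAA for STAT, GAAA, any 2 bases and GAAA for the interferon-stimulated response element, and TATAAA (N is any base). Both lie on the minus strand, Saa3 at chr7:46715701-46715926 and Lcn2 at chr2:32387798-32387989.
Saa3: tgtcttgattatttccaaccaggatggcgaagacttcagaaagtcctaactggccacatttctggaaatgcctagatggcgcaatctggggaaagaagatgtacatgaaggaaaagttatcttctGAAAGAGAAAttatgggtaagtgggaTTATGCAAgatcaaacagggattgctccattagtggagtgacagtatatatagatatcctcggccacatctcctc
Lcn2: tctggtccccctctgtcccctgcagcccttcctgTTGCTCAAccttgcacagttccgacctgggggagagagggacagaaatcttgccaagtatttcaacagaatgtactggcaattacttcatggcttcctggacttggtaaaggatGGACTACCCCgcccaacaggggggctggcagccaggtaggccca
In Saa3 the capitals mark GAAAGAGAAA, the interferon-stimulated response element pattern, 125 to 116 bases upstream of the RefSeq start, and TTATGCAA, the C/EBP pattern read on the opposite strand, 99 to 92 bases upstream. In Lcn2 they mark TTGCTCAA, the C/EBP pattern, 216 to 209 bases upstream, and GGACTACCCC, the NF-kB pattern read on the opposite strand, 102 to 93 bases upstream. The matches do not overlap one another. Among 32851 RefSeq promoters of the same 250 upstream bases, 45.8% held the NF-kB pattern, 9.56% the C/EBP pattern, 7.02% the STAT pattern, 2.98% the interferon-stimulated response element and 12.4% TATAAA. Promoters were matched for 6 of the 8 genes, and none of the 6 held the STAT pattern. The C/EBP pattern was also found in the promoters of Saa1, Saa2 and Ptx3 and at 1 of the 2 listed starts of Cp. The other start of Cp held none of the motifs searched. A match describes letters in the window and says nothing of binding.

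The libraries held 19006015 to 26337950 counts. Levels are given as CPM, the read count relative to the library total after TMM scaling, and Pearson correlations of log2 CPM between libraries of a group ran from 0.979 to 0.992 across genes. MB49 control 3 stood apart from the other MB49 controls in epithelial and other transcripts, with 86 counts of Epcam, 49 of Slc40a1, 44 of Hnf4a, 36 of Apoa1, 27 of Krt20 and 10 of Cftr, all at 0 in the other MB49 controls, and 62 of the 66 Cdh1 counts of that group. Without it, the MB49 log2 fold changes given below were 2.95 for Saa3 and 1.91 for Lcn2, both called. A ribosomal RNA row took 5.11% of the counts in KPC control 1 and at most 0.547% elsewhere. Pancreatic duct markers were present in KPC controls (8 of 10 at 1 CPM or more, with Cftr at 0). In MB49 controls only Gata3, 1 of 10 bladder epithelium markers, reached 1 CPM, and the uroplakins Upk1b, Upk2, Upk3a and Upk3b were at 0, so the bladder label is not borne out by these markers. Of the 8 acute phase genes, Saa3, Lcn2, Hp, Cp and Ptx3 had enough counts for the test across all 14362 genes, while Saa1, Saa2 and Orm1 did not and are given by their counts. Genes were called at an adjusted p under 0.05 by the quasi-likelihood test of edgeR, with Benjamini-Hochberg adjustment over all 14362 genes.

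After 8 Gy, KPC cells had more RNA of all 5 acute phase genes that could be tested, and MB49 cells had more Saa3, Lcn2 and Cp. Of the tested genes Saa3 changed most in both lines, 20.1-fold in KPC and 6.64-fold in MB49. Lcn2, the most abundant of the 8 genes per length in every group, rose by 3.28-fold in KPC and 3.48-fold in MB49. Hp changed in KPC and was not called in MB49, and Ptx3 was found only in KPC libraries. In KPC 5 of the 5 tested genes were called higher and 0 lower, where 31.3% of all tested genes were called higher and 32.0% lower. In MB49 3 of 5, with Ptx3 at 0 among the 5, were called higher and 0 lower, where 35.3% of all tested genes were called higher and 31.6% lower. The median log2 fold change of the tested acute phase genes was 2.48 in KPC, against -0.01 over all genes, and 0.40 in MB49, or 1.10 without Ptx3, against 0.04 over all genes. With library totals in place of TMM scaling the MB49 median, with Ptx3 at 0 among the 5, was 0.12, against -0.23 over all genes. The 4 genes with counts were then at 2.44 (Saa3), 1.51 (Lcn2), 0.12 (Cp) and -0.12 (Hp). The filter on low counts keeps a gene more readily where it is high in some group, so these shares and medians describe the genes and support nothing by themselves.

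**Figure D1:**
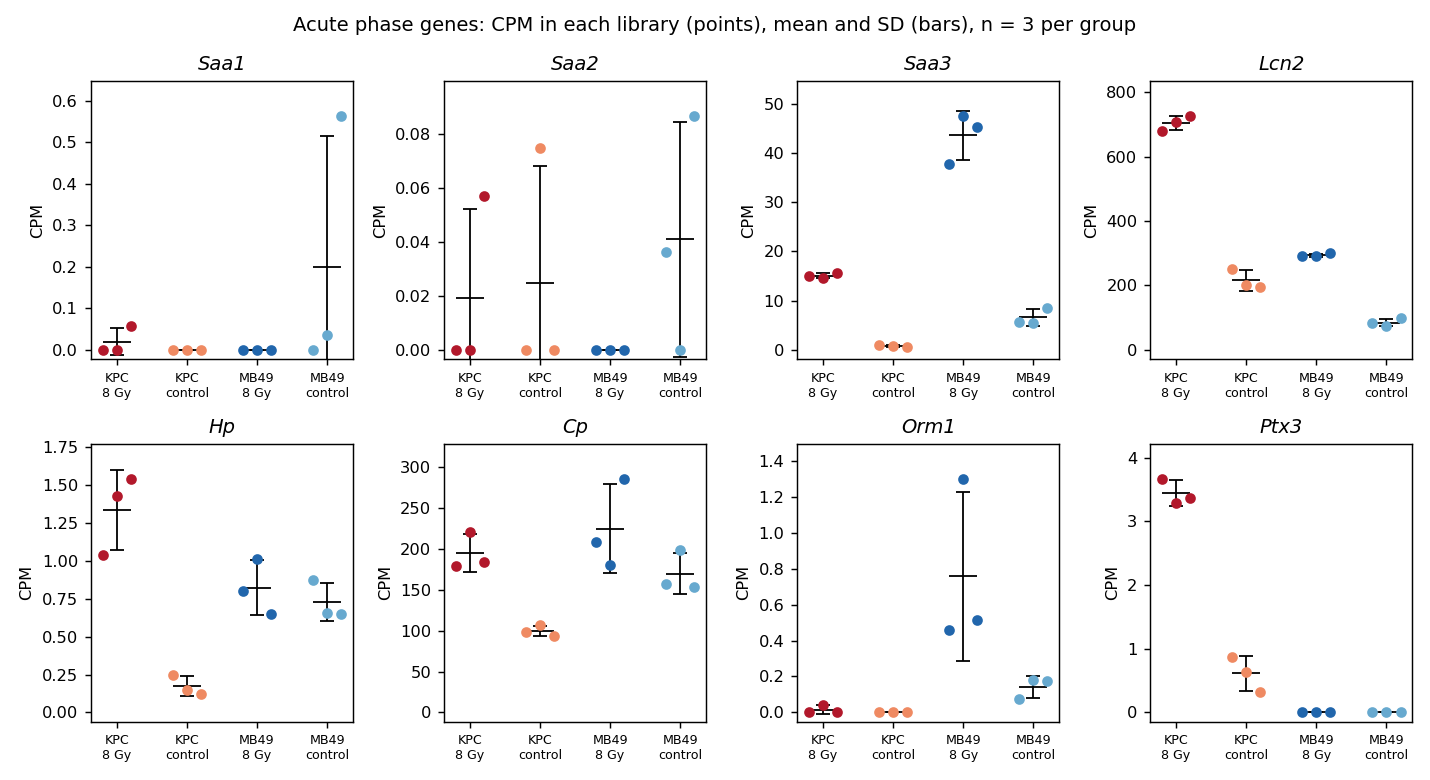
CPM of the 8 acute phase genes (linear axes, a scale of its own for each gene) in irradiated and control libraries of KPC and MB49, each point 1 library, bars mean and SD (n = 3). Saa3 and Lcn2 show separate groups in both lines, Hp separates the groups only in KPC, Ptx3 is at 0 in all MB49 libraries, and the highest Saa1 value stands in 1 MB49 control.

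Saa3 encodes a serum amyloid A that is made mainly outside the liver (gene ENSMUSG00000040026, chromosome 7). It had 15.0, 14.6 and 15.7 CPM in irradiated KPC libraries, against 0.998, 0.673 and 0.572 CPM in KPC controls. In MB49 it had 37.9, 47.6 and 45.4 CPM after 8 Gy, against 5.70, 5.53 and 8.54 CPM in controls. Every irradiated library stood above every control of its line, and every irradiated MB49 library also stood above every irradiated KPC library. The means were 15.1 ± 0.551 CPM in irradiated KPC and 0.748 ± 0.223 CPM in KPC controls, and 43.6 ± 5.08 CPM in irradiated MB49 and 6.59 ± 1.69 CPM in MB49 controls (SD, n = 3 each). The log2 fold change was 4.33 ± 0.22 (SE) in KPC, with an adjusted p of 3.56e-11, and 2.73 ± 0.18 in MB49, with an adjusted p of 6.15e-10. By fold change Saa3 ranked 293 from the highest of 14362 genes in KPC and 694 in MB49.

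The Saa3 response differed between the lines, and so did its level in controls. The KPC log2 fold change was larger than that of MB49 by 1.60 ± 0.29, with an adjusted p of 0.000305 for the difference itself. KPC controls were below MB49 controls by a log2 difference of -3.13 ± 0.23 (adjusted p 1.66e-09). Irradiated KPC cells remained below irradiated MB49 cells, by -1.53 ± 0.17 (adjusted p 4.57e-07). The line with the larger fold change thus had the lower level in both conditions. In order of level, irradiated MB49 came first, then irradiated KPC, MB49 controls and KPC controls, and no libraries of neighbouring groups overlapped. KPC controls held only 14 to 24 Saa3 counts per library, so the size of the KPC fold change rests on few reads.

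Saa1 and Saa2, the inducible serum amyloid A genes of the liver, were close to the limit of detection in every group. Saa1 (ENSMUSG00000074115) had 0, 0 and 1 counts in irradiated KPC and 0 in each KPC control, and 0 in each irradiated MB49 library against 0, 1 and 13 in MB49 controls. Saa2 (ENSMUSG00000057465) had 0, 0 and 1 counts in irradiated KPC against 0, 2 and 0 in KPC controls, and 0 in each irradiated MB49 library against 1, 0 and 2 in MB49 controls. No group of 3 libraries exceeded 14 counts of either gene, and the 13 Saa1 counts of MB49 control 3 stood apart from the rest. That is the library with the Epcam, Hnf4a and Apoa1 counts given above, while Alb was at 0 in it. The part of those transcripts in the Saa1 value was not tested. Over the group, irradiated MB49 cells had at least 3.57-fold less Saa1 than MB49 controls, taking 3 counts over the group as the floor. Fitted with no filter on low counts, Saa1 had a log2 fold change of -5.21 in MB49 (adjusted p 0.0147), and without MB49 control 3 it had -2.16 (adjusted p 0.531). Of the 14 Saa1 counts of the MB49 controls, 13 came from that 1 library. The Saa1 and Saa2 transcripts are 87.3% identical, so reads may have been split between them in the counting. Summed, they still had too few counts for the test.

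Saa4, the constitutive serum amyloid A of the liver, is named here after its values were seen. It had 6, 11 and 6 counts in irradiated KPC and 0 in each KPC control, and 11, 9 and 8 counts in irradiated MB49 and 0 in each MB49 control. Irradiated libraries were above controls in both lines, by at least 9.50-fold in KPC and 12.2-fold in MB49 (floor of 3 counts over the group). Saa4 too was below the filter and has no test.

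Lcn2 encodes lipocalin-2, a secreted protein that binds bacterial iron siderophores (ENSMUSG00000026822, chromosome 2). It had 679.9, 706.2 and 725.6 CPM in irradiated KPC libraries, against 250.6, 200.6 and 193.6 CPM in KPC controls. In MB49 it had 291.9, 289.9 and 299.2 CPM after 8 Gy, against 83.1, 72.9 and 97.3 CPM in controls. Irradiated and control libraries did not overlap in either line, and the irradiated libraries of each line lay close together. The means were 703.9 ± 22.9 CPM in irradiated KPC and 214.9 ± 31.1 CPM in KPC controls, and 293.7 ± 4.91 CPM in irradiated MB49 and 84.4 ± 12.2 CPM in MB49 controls (SD, n = 3 each). The log2 fold change was 1.71 ± 0.13 (SE) in KPC, with an adjusted p of 5.91e-09, and 1.80 ± 0.13 in MB49, with an adjusted p of 2.97e-09. The difference of these responses, KPC minus MB49, was -0.09 ± 0.18, with a 95% interval of -0.47 to 0.30 and an adjusted p of 0.740. Differences of either sign within that interval remain compatible with these values.

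KPC cells had more Lcn2 than MB49 cells in both conditions, the opposite of Saa3. The log2 difference of KPC over MB49 was 1.26 ± 0.13 after 8 Gy (adjusted p 2.03e-07) and 1.35 ± 0.13 in controls (adjusted p 8.27e-08). Irradiated KPC was highest, then irradiated MB49, KPC controls and MB49 controls, with no overlap between neighbours. Per kilobase of gene length, Lcn2 reached 775.2 CPM in irradiated KPC and 236.7 CPM in KPC controls, ranks 141 and 291 of the tested genes. On the same scale it had 323.4 CPM in irradiated MB49 and 93.0 CPM in MB49 controls, ranks 279 and 742.

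**Figure D2:**
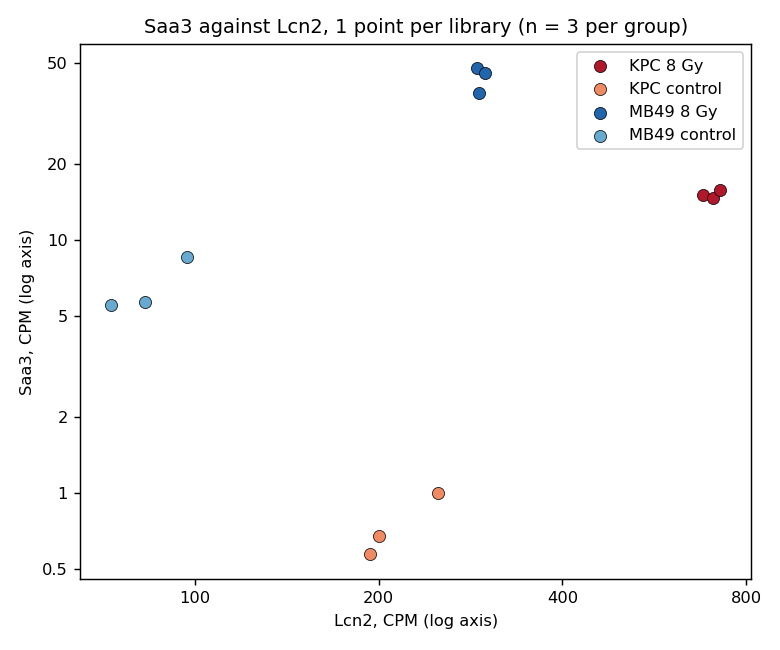
Saa3 against Lcn2 in CPM (both axes log), each point 1 of the 12 libraries, coloured by group. The 4 groups form separate sets of points: irradiated KPC has the highest Lcn2 and irradiated MB49 the highest Saa3.

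Because neutrophils store lipocalin-2 and macrophages make Saa3, markers of both were read beside these genes. The summed CPM of 10 neutrophil markers was 6.40 to 7.24 in irradiated KPC against 0.0832 to 0.245 in KPC controls, and 5.01 to 5.41 in irradiated MB49 against 0.366 to 0.762 in MB49 controls. The neutrophil genes S100a9, Ngp and Csf3r were at 0 in all 12 libraries. The summed CPM of 10 macrophage markers was 3.42 to 4.07 in irradiated KPC against 0.998 to 1.16 in KPC controls, and 13.0 to 22.2 in irradiated MB49 against 2.71 to 3.60 in MB49 controls. Ptprc, the common leukocyte antigen, was at 0 in irradiated and control KPC and in MB49 controls, and Fcgr1 was at 0 throughout. In irradiated KPC most of the neutrophil sum was Ltf (6.34 CPM), and in irradiated MB49 it was Ly6g (4.31 CPM), and Mrc1 led the macrophage sum in both (1.83 CPM in irradiated KPC and 15.9 CPM in irradiated MB49). Both sums were higher in irradiated than in control libraries of each line. The 5 adipocyte markers summed to 0.114 to 0.347 CPM in irradiated KPC and 0.286 to 0.457 CPM in KPC controls, and to 5.52 to 9.74 CPM in irradiated MB49 and 0.290 to 1.13 CPM in MB49 controls. Nearly all of the irradiated MB49 sum was Fabp4 (7.56 CPM). Adipoq, Plin1 and Cidec had 1 count each over that group, and Lep was at 0 throughout. The 8 hepatocyte markers summed to at most 1.82 CPM in any library. The part of these markers in the results was not tested, and in bulk RNA a changed number of cells of a type cannot be told apart from changed RNA per cell.

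Hp encodes haptoglobin, which binds free haemoglobin (ENSMUSG00000031722, chromosome 8). It had 1.04, 1.43 and 1.54 CPM in irradiated KPC libraries, against 0.249, 0.150 and 0.122 CPM in KPC controls. In MB49 it had 0.805, 1.01 and 0.653 CPM after 8 Gy, against 0.871, 0.659 and 0.650 CPM in controls. The KPC groups were apart and the MB49 groups overlapped. The log2 fold change was 2.91 ± 0.41 (SE) in KPC, 7.52-fold, with an adjusted p of 8.78e-06. In MB49 it was 0.17 ± 0.36, with a 95% interval of -0.58 to 0.93 and an adjusted p of 0.682. The difference of the responses, KPC minus MB49, was 2.74 ± 0.55, with an adjusted p of 0.000755. KPC controls were below MB49 controls by -2.04 ± 0.42 (adjusted p 0.000393). After 8 Gy the log2 difference of KPC over MB49 was 0.70 ± 0.35 (adjusted p 0.0886), not called, although all 3 KPC libraries were above all 3 MB49 libraries. These values rest on 21, 33 and 27 counts in irradiated KPC against 6, 4 and 3 in KPC controls, and 14, 21 and 14 counts in irradiated MB49 against 24, 18 and 15 in MB49 controls. The MB49 value changed sign with library totals in place of TMM scaling (-0.12) and without irradiated MB49 library 2 (-0.01).

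Cp encodes ceruloplasmin, a copper-carrying ferroxidase that promotes iron loading of transferrin (ENSMUSG00000003617, chromosome 3). It had 179.7, 221.2 and 183.9 CPM in irradiated KPC libraries, against 98.1, 106.7 and 94.0 CPM in KPC controls. In MB49 it had 208.3, 180.5 and 285.8 CPM after 8 Gy, against 157.6, 199.1 and 152.9 CPM in controls. The KPC groups did not overlap, whereas irradiated MB49 library 2 was below MB49 control 2. The log2 fold change was 0.97 ± 0.16 (SE) in KPC, 1.96-fold, with an adjusted p of 4.54e-05, and 0.40 ± 0.16 in MB49, 1.32-fold, with an adjusted p of 0.0317. The difference of the responses, KPC minus MB49, was 0.56 ± 0.22 (adjusted p 0.0506), just short of the threshold. KPC controls were below MB49 controls by -0.77 ± 0.16 (adjusted p 0.000365). After 8 Gy the log2 difference of KPC over MB49 was -0.21 ± 0.16, with a 95% interval of -0.54 to 0.13 and an adjusted p of 0.262. In order of level, irradiated MB49, irradiated KPC and MB49 controls each overlapped the next, and KPC controls were below them all.

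The MB49 call for Cp depended on single libraries and on the scaling. It was lost without irradiated library 3 (log2 fold change 0.20, adjusted p 0.219), without MB49 control 1 (0.35, adjusted p 0.105), without MB49 control 3 (0.33, adjusted p 0.0989) and without KPC control 1, which is not in the comparison but shares its spread and scaling (0.31, adjusted p 0.115). It was also lost with library totals in place of TMM scaling (0.12, adjusted p 0.591), with no filter (0.28, adjusted p 0.0862) and with only the MB49 libraries in the fit (0.32, adjusted p 0.143). Over all alternatives run, the MB49 value ran from 0.12 to 0.54 and its adjusted p from 0.00866 to 0.591, while the KPC value ran from 0.59 to 1.02 and was called in each. Scaling by library totals moves the median log2 fold change of all genes to -0.39 in KPC and -0.23 in MB49, against -0.01 and 0.04 with TMM. Cp overlaps Hps3 on the opposite strand, and whether reads were counted by strand is not stated. Hps3 averaged 6.60 CPM in irradiated KPC and 9.06 CPM in KPC controls, and 7.45 CPM in irradiated MB49 and 11.8 CPM in MB49 controls, with log2 fold changes of -0.45 in KPC and -0.66 in MB49, the opposite direction to Cp.

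**Figure D3:**
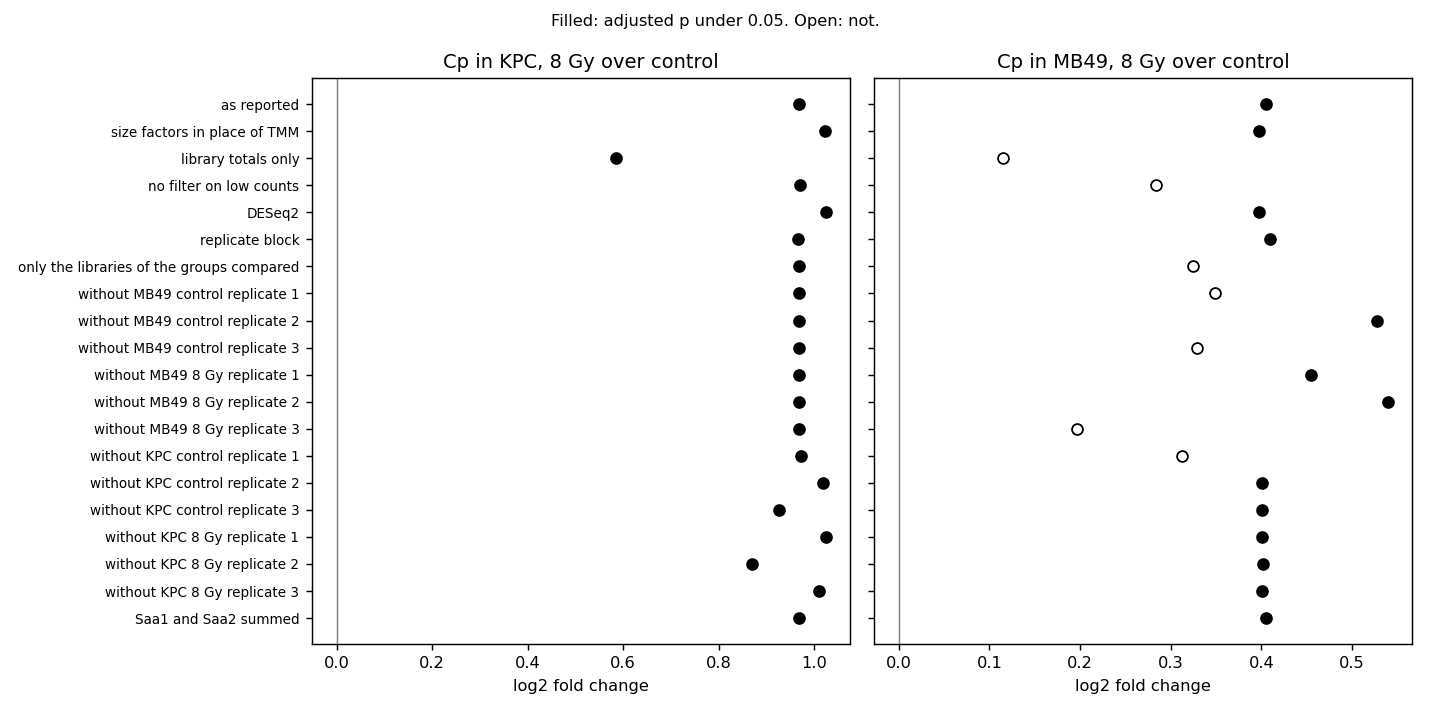
Log2 fold change of Cp (8 Gy over control) in KPC and MB49 under each way of processing tried, filled where the adjusted p was under 0.05 and open where it was not. All KPC points are filled, between 0.59 and 1.02, and the MB49 points run from 0.12 to 0.54 with open points at the lower values.

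Orm1 encodes alpha-1-acid glycoprotein, a plasma protein that binds drugs and lipids (ENSMUSG00000039196, chromosome 4). It had 0, 1 and 0 counts in irradiated KPC and 0 in each KPC control, and 8, 27 and 11 counts in irradiated MB49 against 2, 5 and 4 in MB49 controls. The MB49 groups did not overlap, and KPC was near 0 throughout. Irradiated MB49 held 46 counts against 11 in MB49 controls, a ratio of 5.47 after scaling, with a 95% interval of 2.79 to 11.7 that covers counting error only. Irradiated library 2 held 27 of the 46 counts, and without it the ratio was 3.46 (95% interval 1.57 to 8.06). Fitted with no filter on low counts, the MB49 log2 fold change was 2.25 ± 0.75 (adjusted p 0.00858). Orm1 shares 91.0% of its transcript with Orm2 and 86.4% with Orm3, so the counting could split reads among them. Summed over Orm1, Orm2 and Orm3, a grouping chosen after the data were seen, the level was 0.0881 ± 0.0722 CPM in irradiated KPC and 0.0527 ± 0.0458 CPM in KPC controls, and 1.79 ± 0.683 CPM in irradiated MB49 and 0.722 ± 0.0507 CPM in MB49 controls (SD, n = 3 each). The log2 fold change of the sum was 1.31 ± 0.41 in MB49 (adjusted p 0.00940) and 0.60 ± 0.91 in KPC (adjusted p 0.592). KPC was below MB49 in the sum, by -4.35 ± 0.58 after 8 Gy (adjusted p 4.09e-06) and -3.63 ± 0.63 in controls (adjusted p 6.79e-05).

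Ptx3 encodes the long pentraxin 3, a secreted pattern recognition protein (ENSMUSG00000027832, chromosome 3). It had 3.67, 3.29 and 3.37 CPM in irradiated KPC libraries, against 0.873, 0.636 and 0.327 CPM in KPC controls. All 6 MB49 libraries had 0 counts, which allows up to 0.0503 CPM in irradiated MB49 and 0.0385 CPM in MB49 controls at 3 counts over the group. The KPC groups were apart, with a log2 fold change of 2.48 ± 0.37 (SE), 5.59-fold, and an adjusted p of 5.85e-05. KPC had at least 68.4-fold more Ptx3 than MB49 after 8 Gy (209 counts against 0) and at least 15.9-fold more in controls (46 against 0). No MB49 response or difference of responses is given, since both MB49 groups were at 0. Veph1, which overlaps Ptx3 on the opposite strand, had 4 counts in irradiated KPC, 2 in KPC controls and 0 in MB49.

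**Figure D4:**
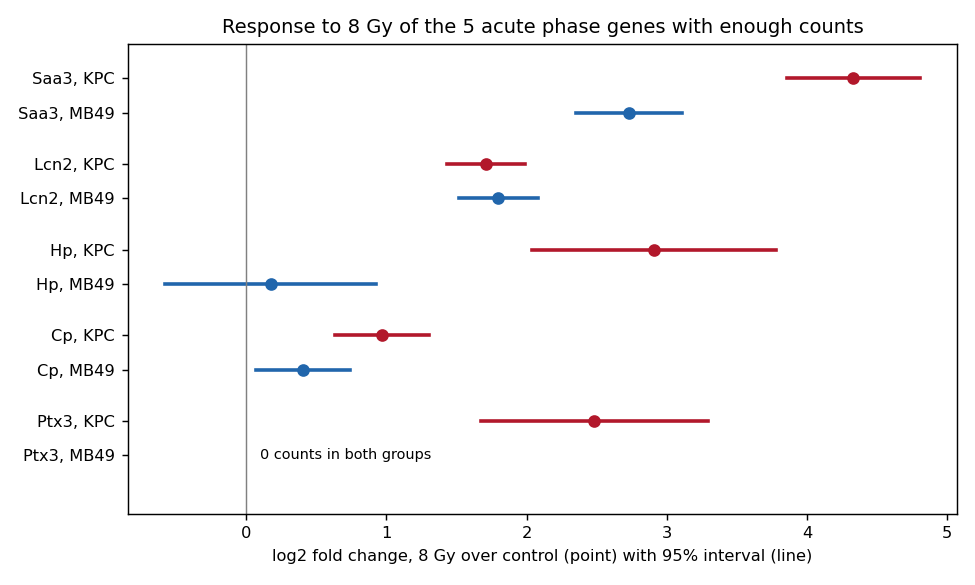
Log2 fold change (8 Gy over control, horizontal axis) of the 5 acute phase genes with enough counts, KPC above MB49 for each gene, points fitted values and lines 95% intervals. Saa3 and Hp have larger values in KPC, the Lcn2 intervals overlap, and the Hp interval in MB49 spans 0.

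Across the lines, 2 of the 4 genes with a response in both fits, Saa3 and Hp, were called different, both higher in KPC, where 20.9% of all tested genes were called higher in KPC and 22.0% lower. In controls, KPC had more Lcn2 and Ptx3 and less Saa3, Hp and Cp than MB49, 2 higher and 3 lower of 5, where 33.0% of all tested genes were called higher and 34.4% lower. After 8 Gy, KPC had more Lcn2 and Ptx3 and less Saa3, 2 higher and 1 lower of 5, where 31.0% were called higher and 33.4% lower. These comparisons share libraries, and the values of each stand with its gene above.

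Lcn2 took a larger mean share of the acute phase reads after the dose in both lines. The 8 genes summed to 918.7 ± 35.1 CPM in irradiated KPC and 316.1 ± 31.8 CPM in KPC controls, and to 563.7 ± 59.5 CPM in irradiated MB49 and 262.0 ± 15.6 CPM in MB49 controls (SD, n = 3 each). Lcn2 made up 76.6% ± 1.81 of that sum in irradiated KPC and 67.8% ± 3.30 in KPC controls, and 52.4% ± 4.43 in irradiated MB49 and 32.4% ± 5.69 in MB49 controls. Cp made up 21.2% ± 1.92 in irradiated KPC and 31.7% ± 3.38 in KPC controls, and 39.5% ± 5.33 in irradiated MB49 and 64.7% ± 6.42 in MB49 controls. These are shares of reads, not adjusted for gene length, they move against each other, and no test was run on them.

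Complement genes were among the other acute phase genes that rose. The counts called in this and the following lists stand against 31.3% of all tested genes called higher and 32.0% lower in KPC, and 35.3% higher and 31.6% lower in MB49, and nothing particular to a list is read from them. Of 26 listed genes 8 had enough counts. In KPC 5 were called higher and 1 lower, with a median log2 fold change of 2.86, or 1.72 with genes at 0 in a group set at the floor of 3 counts, and in MB49 3 were called higher and 2 lower, with a median of 0.73. With library totals the medians were 2.59 in KPC and 0.43 in MB49. Cfb, the complement factor B of the alternative pathway, averaged 545.4 ± 9.92 CPM in irradiated KPC and 0.445 ± 0.287 CPM in KPC controls, and 2.93 ± 0.478 CPM in irradiated MB49 and 0.428 ± 0.273 CPM in MB49 controls (SD, n = 3 each). Its log2 fold change was 10.22 ± 0.31 in KPC (adjusted p 6.40e-14) and 2.81 ± 0.35 in MB49 (adjusted p 2.14e-06), a difference of 7.42 ± 0.62 (adjusted p 1.40e-07). C3, the central complement component, averaged 705.2 ± 37.5 CPM in irradiated KPC and 29.1 ± 4.12 CPM in KPC controls, and 2499 ± 482 CPM in irradiated MB49 and 587.4 ± 58.9 CPM in MB49 controls. C3 rose by a log2 fold change of 4.60 in KPC and 2.09 in MB49. Lbp, which carries lipopolysaccharide to CD14, rose in KPC (3.73 ± 0.29, adjusted p 5.81e-09) and fell in MB49 (-0.96 ± 0.26, adjusted p 0.00358). Serpina3n, a protease inhibitor, had 8 counts over irradiated KPC and 0 over KPC controls, at least 3.31-fold more, and rose in MB49 by a log2 fold change of 5.44 ± 0.28 (adjusted p 2.07e-10). Of 7 genes that normally fall in the acute phase, only Trf, transferrin, had enough counts, and it rose in KPC (1.37, adjusted p 0.00114). In MB49 it was called higher (1.23, adjusted p 0.0386) on 37 counts over irradiated MB49 against 20 over MB49 controls. Those MB49 groups overlapped, and the call was lost with library totals. Hpx, hemopexin, which binds haem, is named after its values were seen: it fell on few counts in both lines, 3 counts over irradiated KPC against 26 over KPC controls, and 8 over irradiated MB49 against 41 over MB49 controls.

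Levels of the inducing cytokines ranged widely, and Il6 was low while Csf3 and Lif were abundant in MB49. Of 11 listed, 5 had enough counts, with 3 higher and 1 lower in KPC (median 1.35) and 3 higher and 2 lower in MB49 (median 0.57). With library totals MB49 had 2 higher and 2 lower (median 0.27), and the KPC median was 0.97. Il6 averaged 0.885 ± 0.224 CPM in irradiated KPC and was at 0 in KPC controls, at least 22.7-fold higher, and averaged 4.39 ± 1.82 CPM in irradiated MB49 and 0.589 ± 0.235 CPM in MB49 controls, a log2 fold change of 2.90. Csf3, which encodes the growth factor of neutrophils, averaged 5.29 ± 0.789 CPM in irradiated KPC and 0.990 ± 0.227 CPM in KPC controls, and 282.3 ± 36.6 CPM in irradiated MB49 and 32.1 ± 2.47 CPM in MB49 controls. Its log2 fold change was 2.43 in KPC and 3.14 in MB49. Il11, a cytokine of the interleukin-6 family, rose by 1.35 in KPC and 0.57 in MB49. Lif, of the same family, fell by 0.68 on the log2 scale in KPC and by 0.35 in MB49, and Osm fell by 1.76 in MB49. Il1a, Il1b and Tnf, named after their values were seen, had too few counts for the test. The highest counts over a group were 12 for Il1a (irradiated MB49), 2 for Il1b (MB49 controls) and 11 for Tnf (irradiated KPC).

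Receptors of these cytokines moved in both directions, in a list that also held Tlr2, Tlr4 and the signalling adaptor Myd88. Of 14 listed, 13 had enough counts, with 5 higher and 5 lower in KPC (median 0.17, or 0.34 over the 12 with counts there) and 4 higher and 6 lower in MB49 (median -0.32). With library totals the medians were 0.00 in KPC and -0.62 in MB49, where 3 were then called higher and 7 lower. That KPC median is the value of Il1rap, which had 0 counts in KPC. Il22ra1, a subunit of the interleukin-22 receptor, rose by a log2 fold change of 1.86 in KPC and 4.09 in MB49. Tnfrsf1a, the widely expressed receptor of tumour necrosis factor, rose by 1.04 in KPC and 1.20 in MB49. Osmr, the oncostatin M receptor, rose in KPC (1.68, adjusted p 7.98e-08) and had -0.04 in MB49 (adjusted p 0.844), a difference of 1.72 ± 0.22 (adjusted p 1.11e-05). Tlr2, a receptor of bacterial lipoproteins, rose in KPC by 1.51 and had -0.32 in MB49 (adjusted p 0.0715). Il6ra, the ligand-binding interleukin-6 receptor, fell by 1.38 in KPC and by 1.30 in MB49. Its signalling partner Il6st fell by 0.38 in KPC and by 1.41 in MB49. Il1r1, the signalling interleukin-1 receptor, fell by 1.98 in KPC and by 0.86 in MB49, and Il17ra, of the interleukin-17 receptor, by 0.68 in KPC and by 1.48 in MB49. Tnfrsf1b, the other receptor of tumour necrosis factor, fell by 0.52 in KPC and rose by 0.69 in MB49. Tlr4, the lipopolysaccharide receptor, fell by 1.45 in MB49 and was not called in KPC (0.50).

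Transcription factors and feedback genes of these pathways also split. Of 21 listed, 18 had enough counts, with 9 higher and 6 lower in KPC (median 0.48) and 8 higher and 8 lower in MB49 (median -0.35). With library totals there were 7 higher and 7 lower in KPC (median 0.09) and 7 higher and 10 lower in MB49 (median -0.65). Socs3, the feedback inhibitor of STAT3 signalling, rose by a log2 fold change of 1.24 in KPC and 1.95 in MB49, and Nfkbiz, an NF-kB cofactor for Lcn2 in mouse, by 1.97 in KPC and 1.26 in MB49. Zfp36, which destabilises cytokine mRNAs, rose by 2.35 in KPC and 0.90 in MB49. Of the NF-kB subunits, Rela fell by 0.64 in KPC and by 1.95 in MB49, Nfkb1 by 0.35 in KPC and by 1.43 in MB49, and Relb by 1.08 in KPC and by 1.26 in MB49. Rel fell by 0.67 in MB49 and had 0.15 in KPC (adjusted p 0.509), and Nfkb2 was called in neither line, at -0.05 in KPC (adjusted p 0.797) and -0.31 in MB49 (adjusted p 0.0656). Rel and Nfkb2 are named after their values were seen. Bcl3, an IkB family member in the nucleus, rose by 0.45 in KPC and fell by 1.50 in MB49. Cebpg fell by 0.75 in KPC and by 0.99 in MB49, and Cebpa fell by 1.72 in KPC. Cebpd rose by 1.87 in KPC and 0.79 in MB49, and Cebpb rose by 1.16 in MB49 and was not called in KPC (0.74). Stat3 rose by 1.49 in KPC and 1.22 in MB49. Cebpb, Cebpd and Stat3 are named after their values were seen. With library totals no called gene of the lists described here changed sign. Calls lost with them were Bcl3 (0.07) and Zc3h12a (0.12) in KPC, and Trf (0.95), Il11 (0.27), Il17rc (0.19) and Cebpd (0.49) in MB49. Newly called lower were Nfkb2 in KPC (-0.44) and MB49 (-0.61), and Tlr2 (-0.62), Cd14 (-0.24) and Cebpa in MB49, the last with 0 counts over irradiated MB49 and 9 over MB49 controls.

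Genes for receptors and partners of the acute phase proteins included iron and haem genes that rose in both lines. Of 18 listed, 9 had enough counts, with 4 higher and 1 lower in KPC (median 0.80) and 6 higher and 2 lower in MB49 (median 1.57). With library totals the medians were 0.42 in KPC and 1.27 in MB49. The ferritin subunits, which store iron, were among the higher, Fth1 by a log2 fold change of 1.95 in KPC and 2.74 in MB49, and Ftl1 by 1.98 in KPC and 2.61 in MB49. Hmox1, which degrades haem, averaged 1677 ± 38.3 CPM in irradiated KPC and 239.6 ± 21.2 CPM in KPC controls, and 189.6 ± 25.5 CPM in irradiated MB49 and 60.0 ± 4.10 CPM in MB49 controls. Mmp9, a gelatinase that binds lipocalin-2, rose by a log2 fold change of 1.63 in KPC and 1.96 in MB49. P2rx7, an ATP-gated ion channel, fell by 0.34 in KPC and by 0.31 in MB49. Tnfaip6, a hyaluronan-binding partner of Ptx3, fell by 1.34 in MB49 and had 0.43 in KPC (adjusted p 0.492).

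The 3 abundant acute phase genes had different patterns over the 12 libraries. Likeness was measured as the root mean square difference of gene-centred log2 CPM, 0 for the same pattern, against 10500 abundant named genes. Nearest to Saa3 were Tubb2b (0.35), Upk3bl (0.37) and Il12rb1 (0.40), where the median of all genes was 2.21. Nearest to Lcn2 were Rassf7 (0.16), Urod (0.18) and Acat2 (0.18), median 1.25, and nearest to Cp were Atp6ap2, Zdhhc2 and Ezh2 (0.13 each), median 0.763. Saa3 and Lcn2 were 2.02 apart, Saa3 and Cp 1.70, and Lcn2 and Cp 1.08, so none of them was among the nearest genes of another. Tubb2b shared with Saa3 a larger rise in KPC, by a log2 fold change of 4.49 against 1.92 in MB49, and a lower level in KPC than in MB49 in both conditions. Points from libraries of 1 group share depth and line, and no test was run on the likeness.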

How the data were processed

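Total RNA (TRIzol, 1 µg) was made into libraries with an Illumina stranded mRNA kit, per the labels' protocols. The values deposited by the authors are estimated counts for each gene without scaling, and 6.20 to 8.65% of those in a library were not whole. The submitters' processing notes name fastp, HISAT2, StringTie and GRCm39, while versions, the counting tool and its strand setting are not given in the sources used here.

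Counts were rounded to whole numbers. Rows without a symbol (0.184 to 0.449% of the counts) kept their gene ID. With edgeR 4.0.16 in R 4.3.3, genes were filtered by filterByExpr (14362 kept), scaled by TMM and fitted with 1 coefficient per group over all 12 libraries. The quasi-likelihood test was adjusted by Benjamini-Hochberg over all genes, and the threshold was 0.05. The test was checked on simulated counts. CPM use TMM-scaled totals, and log2 CPM a prior count of 2. Floors are 3 counts over the 3 libraries of a group, and count ratios carry exact 95% intervals, both for counting error only. Intervals of fold changes are 95%.

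The acute phase genes, the other gene lists and the tests were chosen with earlier results of these data known. Genes were named per list by size of change, at most 3 in each direction and line, among called genes with at least 1 CPM in a group, or else the most abundant. A gene that this rule picks from the transcription factor list is not reported here. Likeness used genes with at least 5 CPM in a group and a proper gene name. Alternatives were DESeq2 1.42.0, its size factors, library totals, no filter, only the libraries compared, a replicate block, Saa1 and Saa2 summed, and each library left out. Chosen after seeing the data were no filter without MB49 control 3, Orm1 to Orm3 summed, and the Orm1 ratio without each MB49 library. Promoters came from RefSeq (GRCm38.p6), with transcripts and overlaps from GENCODE M21, so no coordinates were joined to the files' build.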

Additional observations from a re-analysis of the deposited data

Results flagged for a closer look

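2 responses differed between the lines by a test of the difference itself, KPC minus MB49. That of Saa3 was 1.60 on the log2 scale (adjusted p 0.000305), with all 3 irradiated libraries above all 3 controls in each line. That of Hp was 2.74 (adjusted p 0.000755), with all 3 irradiated libraries above the controls in KPC and overlapping groups in MB49. Both come from the quasi-likelihood test of edgeR adjusted by Benjamini-Hochberg over all genes, of which 20.9% were called higher in KPC. KPC controls held 14 to 24 Saa3 counts and 3 to 6 Hp counts per library. Leaving out each library in turn gave 1.38 to 1.96 for Saa3 and 2.55 to 3.18 for Hp, each called.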

How the results depend on the processing

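The counts of genes called, over all genes and over the 8 acute phase genes, stayed within 1.5 times under every alternative run, although leaving out 1 of several libraries took the MB49 count of acute phase genes to 2. The KPC responses of Saa3, Lcn2, Hp, Cp and Ptx3 and the MB49 responses of Saa3 and Lcn2 kept their direction and call under each. 7 values changed sign, none called in either setting, and their cause was not tested. They were Hp in MB49 with library totals (-0.12), without irradiated MB49 library 2 (-0.00702, with 0.324 the highest value when a library was left out) and with no filter and without MB49 control 3 (-0.0298), the Lcn2 difference with no filter (0.0385), without MB49 control 2 (0.0138) and without KPC control 1 (0.146, with -0.195 the lowest value when a library was left out), and Cp in irradiated KPC over MB49 without irradiated MB49 library 3 (0.00328, with -0.340 the lowest). The Cp difference became called with size factors (0.63, adjusted p 0.0291), DESeq2 (0.63, 0.0175), no filter (0.69, 0.00202), without MB49 control 3 (0.64, 0.0284) and without irradiated MB49 library 3 (0.77, 0.00378). With no filter and without MB49 control 3, Cp in MB49 was 0.20 (adjusted p 0.280). Same-numbered libraries showed no common deviation from their group means (r from -0.178 to 0.171 in MB49 and -0.116 to 0.0194 in KPC). With 3 such correlations per line this cannot decide whether the numbers mark pairs. A replicate block gave 8723 called genes in KPC, against 9086 without it, 9190 in MB49, against 9606, and 5635 for the difference, against 6162. Between the lines it gave 8811 after 8 Gy, against 9245, and 9325 in controls, against 9672, and it changed no call of an acute phase gene. Saa1, Saa2, Orm1 and Hp rest on few counts, which limits their values.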
